A study of Mus musculus with 6 samples.

Results

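The clustered Zfp genes are 175 protein-coding genes on 14 of the 19 mouse autosomes, named Zfp with a number alone, each with at least 2 other such genes within 200 kb of its body. The remaining 185 autosomal genes named in that way are the unclustered Zfp genes, and all 360 were drawn from 20665 autosomal genes that RefSeq lists as protein-coding in GRCm38.p6 (coordinates as in mm10). Names with a trailing letter, such as Zfp607a, were not counted. Members separated by no more than 200 kb were joined into 28 runs of 2 to 19 genes, 10 of them on chromosome 7, which carries 67 members. The names were taken as they stand, and the proteins were not examined here.

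Most Zfp genes encode proteins with C2H2 zinc fingers, small zinc-holding folds that read DNA letters. Many of those in clusters also carry a KRAB domain, which recruits the scaffold protein TRIM28 and through it the histone methyltransferase SETDB1, so that bound DNA is packed into repressive chromatin. Such clusters grew by tandem duplication, and many of their proteins recognise transposable elements. A promoter accessible to transposase in ATAC-seq is the usual state of a gene that can be transcribed, while a peak alone does not measure transcription.

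Open chromatin had been profiled in immortalised atrioventricular cushion mesenchymal cells, the embryonic cells that build heart valves and septa, at passage 6. The cells carry the H- 2Kb-tsA58 transgene, which supplies a temperature-sensitive viral T antigen for immortalisation, in both groups, and the age of the source embryos is not given in the labels. Glucose was 5.5 mM for the 3 normal-glucose libraries and 25 mM for the 3 high-glucose libraries, over 48 h, and each library was made from 54000 cells. Nothing in the labels says that replicates were separate cultures, so the spread between libraries that the p-values rest on may be technical.

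The lists used held 22156 to 40350 peaks, the longest being normal-glucose replicate 3. Normal-glucose replicate 2 held 66 peaks, none at a clustered Zfp gene, and was left out, so that 2 libraries of normal and 3 of high glucose remained. Read depth is unknown. Among marker genes, 9 of 10 mesenchymal genes were open, in the sense given next, in all 5 libraries and Twist1 in 4, while no endothelial, cardiomyocyte, blood or epithelial marker (6 genes each) was open in all 5. The endothelial gene Kdr was open in 4 libraries, and Erg and the cardiomyocyte gene Myl2 in 1 each. With peaks anywhere in the gene counted too, the epithelial gene Cdh1 had a peak in all 5 libraries. The endothelial gene Pecam1 and the cardiomyocyte gene Actn2 had such a peak in 4 each.

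A gene is called open in a library when a peak lay within 1 kb of either end of the gene. The strength of a peak is its percentile in its own list by the authors' −log10 p, where 100 is the strongest. Because the lists differ in length, a percentile places a peak within its list and does not measure change from library to library.

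RefSeq promoter windows of GRCm38.p6 from 250 bases before to 50 after the first listed start matched 156 of the 175 members. Below, to show the letters under strong and missing peaks, are the windows of the 2 members with the strongest peaks, Zfp961 (chr8:71950816-71951115, plus strand) and Zfp617 (chr8:71922575-71922874, plus strand), and of 2 members without any peak in or within 1 kb of the gene, Zfp459 (chr13:67421369-67421668, minus strand) and Zfp260 (chr7:30094826-30095125, plus strand). They were chosen after the values were seen. Capitals mark CCAAT, the box bound by NF-Y, CCGGAAG, a core bound by ETS factors, and GGGCGG, the GC box, on either strand.
Zfp961: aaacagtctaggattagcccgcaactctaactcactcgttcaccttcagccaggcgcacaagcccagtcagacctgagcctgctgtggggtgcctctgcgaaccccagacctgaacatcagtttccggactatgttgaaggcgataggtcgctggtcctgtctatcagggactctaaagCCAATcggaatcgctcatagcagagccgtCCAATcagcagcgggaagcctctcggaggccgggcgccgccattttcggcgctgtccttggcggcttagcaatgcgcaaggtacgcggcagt
Zfp617: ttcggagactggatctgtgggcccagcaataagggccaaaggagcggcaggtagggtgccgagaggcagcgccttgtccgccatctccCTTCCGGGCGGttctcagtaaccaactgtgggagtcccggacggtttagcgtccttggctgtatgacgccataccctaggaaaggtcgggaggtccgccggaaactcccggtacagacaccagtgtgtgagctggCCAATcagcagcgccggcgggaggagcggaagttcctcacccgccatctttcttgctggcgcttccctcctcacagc
Zfp459: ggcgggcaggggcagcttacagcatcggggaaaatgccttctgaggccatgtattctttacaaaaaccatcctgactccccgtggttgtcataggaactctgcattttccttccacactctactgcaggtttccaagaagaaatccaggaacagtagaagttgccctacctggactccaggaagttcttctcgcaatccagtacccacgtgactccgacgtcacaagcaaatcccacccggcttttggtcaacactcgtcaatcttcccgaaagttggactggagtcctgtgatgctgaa
Zfp260: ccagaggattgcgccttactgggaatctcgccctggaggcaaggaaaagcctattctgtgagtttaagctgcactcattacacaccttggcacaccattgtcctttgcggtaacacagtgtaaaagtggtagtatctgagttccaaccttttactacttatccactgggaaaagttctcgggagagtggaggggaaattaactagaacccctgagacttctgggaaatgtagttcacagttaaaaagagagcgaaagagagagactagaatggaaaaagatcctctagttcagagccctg

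The windows of Zfp961 and Zfp617 held 21 CpG pairs each, and those of Zfp459 and Zfp260 held 10 and 5. Zfp961 had 2 CCAAT boxes, and Zfp617 had 1 of each motif, its ETS core and GC box overlapping. Neither Zfp459 nor Zfp260 had any of these 3 motifs in this window. The contrast in CpG pairs between these chosen windows did not appear among members grouped by gene-end peaks. The median CpG ratio, observed over expected, was 0.603 in the 65 windows of members open in all 5 libraries and 0.588 in the 47 of members open in none. Unclustered Zfp genes did show such a contrast, with a median of 0.721 in 81 windows of genes open in all 5 and 0.315 in 42 of genes open in none. Of the 47 members, however, 14 had a peak at a listed start inside the gene in all 5 libraries, as did 7 of the 42 unclustered genes. The groups open in none are thus mixed, and a contrast at starts without any peak was not tested.

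Clustered Zfp genes as a class were open more often than the average gene. In normal glucose 98 of the 175 (56.0%) were open in replicate 1 and 118 (67.4%) in replicate 3. In high glucose 97 (55.4%), 97 (55.4%) and 98 (56.0%) were open in replicates 1, 2 and 3. Normal-glucose replicate 3 stood alone above a narrow band of the other 4. All protein-coding autosomal genes showed shares of 43.0% to 51.4% in the same libraries, again highest in normal-glucose replicate 3. Open in all 5 libraries were 77 members (44.0%), against 37.1% of all protein-coding autosomal genes. Open in none were 53 members (30.3%), against 46.4% of all. A further 45 members (25.7%) were open in 1 to 4 libraries, against 16.5% of all.

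**Figure D1:**
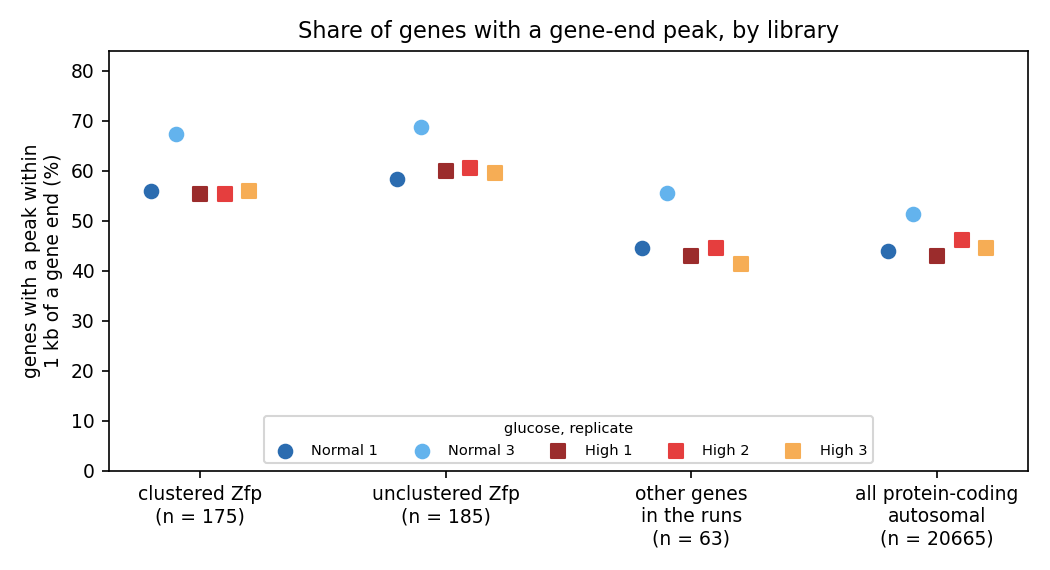
Share of genes open (%, y axis) in each of 5 libraries, for clustered Zfp genes, unclustered Zfp genes, other protein-coding genes inside the runs, and all protein-coding autosomal genes. Each point is 1 library, circles for normal and squares for high glucose, and normal-glucose replicate 3 is the highest point in every set, at 67.4% for clustered Zfp genes.

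The other genes inside the same runs were open less often than the members beside them. There were 63 such protein-coding genes and 41.3% to 55.6% were open per library. Of them 17 (27.0%) were open in all 5 and 27 (42.9%) in none. By name 11 of the 63 were zinc finger genes too, such as Zfp607a, with 2 open in all 5 and 3 in none. Another 11 had Gm or Rik names, with 2 open in all 5 and 6 in none. Of the 41 with other names 13 were open in all 5 and 18 in none. The runs as a whole were dense in peaks, with 22.9 to 34.5 per Mb across libraries, against 8.86 to 16.1 per Mb over the autosomes. They were also dense in genes, with the 175 members and these 63 in 8.20 Mb, against 20665 genes in 2460 Mb of autosomes. The peak densities are not adjusted for this and do not show more peaks per gene.

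Against unclustered Zfp genes the clustered ones were slightly less often open in every library, a difference whose sign depended on how clusters and peaks were defined. The unclustered shares were 58.4% and 68.6% in normal-glucose replicates 1 and 3, and 60.0%, 60.5% and 59.5% in high-glucose replicates 1, 2 and 3. The clustered share was lower in 5 of 5 libraries, by 1.22 to 5.11 percentage points, on average -3.35 (p = 0.063 in a two-sided exact permutation test by sign flips, the smallest p that 5 libraries allow). This p measures the spread between libraries only. The libraries share the same genes, so the p says nothing about the spread from gene to gene. Of the unclustered genes 97 (52.4%) were open in all 5 libraries and 32 (17.3%) in 1 to 4. The difference grew to -6.08 points at a −log10 q of at least 5. It was -5.17 at listed starts, which only 156 clustered and 145 unclustered genes have. That value and -3.35 thus rest on different genes, and their distance is not a change caused by the move to starts. It turned to 1.45 without peaks that also lay at an end of another gene, to 0.164 with neighbours counted within 100 kb, and to 2.57 with at least 4 other such genes required.

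The strongest unclustered gene outranked the strongest clustered ones. Zfp281, a repressor known from pluripotent cells, had percentiles of 98.4 and 99.2 in normal-glucose replicates 1 and 3 and 99.1, 99.4 and 99.4 in high-glucose replicates 1, 2 and 3, and the lowest percentiles of Zfp664 and Zfp654 were 98.0 and 96.8. The peaks of Zfp664 and Zfp654, unlike that of Zfp281, also lay at an end of another gene in all 5 libraries. No member reached 99. Among genes open in all 5, median percentiles by library were 72.3 to 87.5 for clustered and 77.7 to 90.9 for unclustered Zfp genes, with 79.1 to 88.2 for all protein-coding autosomal genes.

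Runs differed widely from each other, as the bar chart by run shows. In 4 runs every member was open in all 5 libraries. These were Zfp868, Zfp964, Zfp869, Zfp963 and Zfp866 on chromosome 8, Zfp560, Zfp26, Zfp426, Zfp266 and Zfp846 on chromosome 9, Zfp251, Zfp7 and Zfp647 on chromosome 15, and Zfp263, Zfp174 and Zfp597 on chromosome 16. In 5 runs, with 25 members together, none was open in all 5. The other 19 runs were mixed, so membership of a cluster did not fix the state of a gene.

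**Figure D2:**
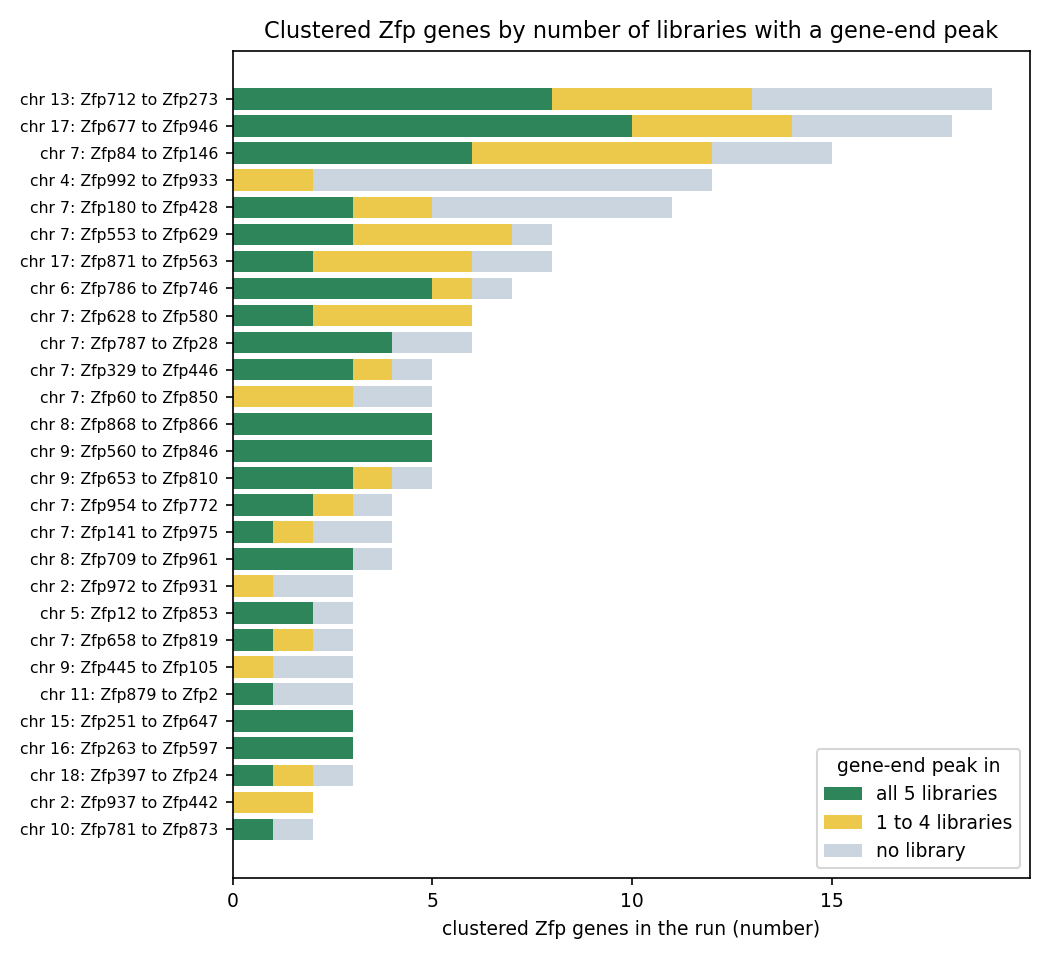
Number of clustered Zfp genes (x axis) in each of 28 runs (y axis, chromosome with the first and last member), split by whether a gene-end peak was present in all 5, in 1 to 4 or in no library. The run Zfp992 to Zfp933 on chromosome 4 has 0 of 12 members in all 5, and 4 runs consist of such members alone.

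The chromosome 4 run, from Zfp992 to Zfp933 (chr4:146449030-147849126), had the fewest peaks per Mb of the 15 runs with 5 or more members. Of its 12 members 10 were open in no library. Zfp985 was open in 4 libraries, with percentiles of 57.2 and 31.5 in normal-glucose replicates 1 and 3 and 12.7 and 16.4 in high-glucose replicates 1 and 3, and had no peak in high-glucose replicate 2. Zfp933 was open in 2, high-glucose replicates 1 and 2. Inside the gene, away from its ends, Zfp981 and Zfp993 held peaks in 5 of the 5 lists. The whole stretch of 1400 kb held 2.86 to 5.00 peaks per Mb, below the autosomal level in every library. The 9 of its promoter windows in the RefSeq table were poor in GC, with a median of 42.3% against 53.5% for all members, and had a median CpG ratio of 0.382 against 0.591. Of these 9 windows 6 shared at least 1 stretch of 50 letters, the length of a read, with the window of another gene, against 23 of the 156 member windows in all. Whether reads that cannot be placed account for any missing peak was not tested.

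Chromosome 13 carried the longest run, 19 genes from Zfp712 to Zfp273 in 788 kb, with a stretch of few gene-end peaks inside it. Zfp712, at its first end, was open in all 5 libraries with percentiles of 81.8 and 97.0 in normal-glucose replicates 1 and 3 and 94.5, 78.0 and 91.0 in high-glucose replicates 1, 2 and 3. None of the next 10 genes, from Zfp708 to Zfp459, was open in all 5, and 6 of them were open in none. Of these 6, Zfp708, Zfp458 and Zfp595 had a peak in all 5 libraries at a listed start inside the gene, so these 3 lacked a peak at their ends alone. Of the last 8, from Zfp58 to Zfp273, 7 were open in all 5, and Zfp65 was open in normal-glucose replicate 3 alone. The run kept a density of 29.2 to 44.4 peaks per Mb.

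On chromosome 17 the run of 18 genes from Zfp677 to Zfp946 had 10 members open in all 5, 9 of them among its first 11. Zfp53 led it, with percentiles of 89.9 and 97.2 in normal-glucose replicates 1 and 3 and 86.4, 84.9 and 92.0 in high-glucose replicates 1, 2 and 3. Open at their ends in 0 libraries were Zfp52, Zfp229, Zfp944 and Zfp758, of which Zfp52 and Zfp229 had a peak at a listed start inside the gene in all 5. The second chromosome 17 run had 2 of 8 members open in all 5, led by Zfp563 with a lowest percentile of 70.0.

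**Figure D3:**
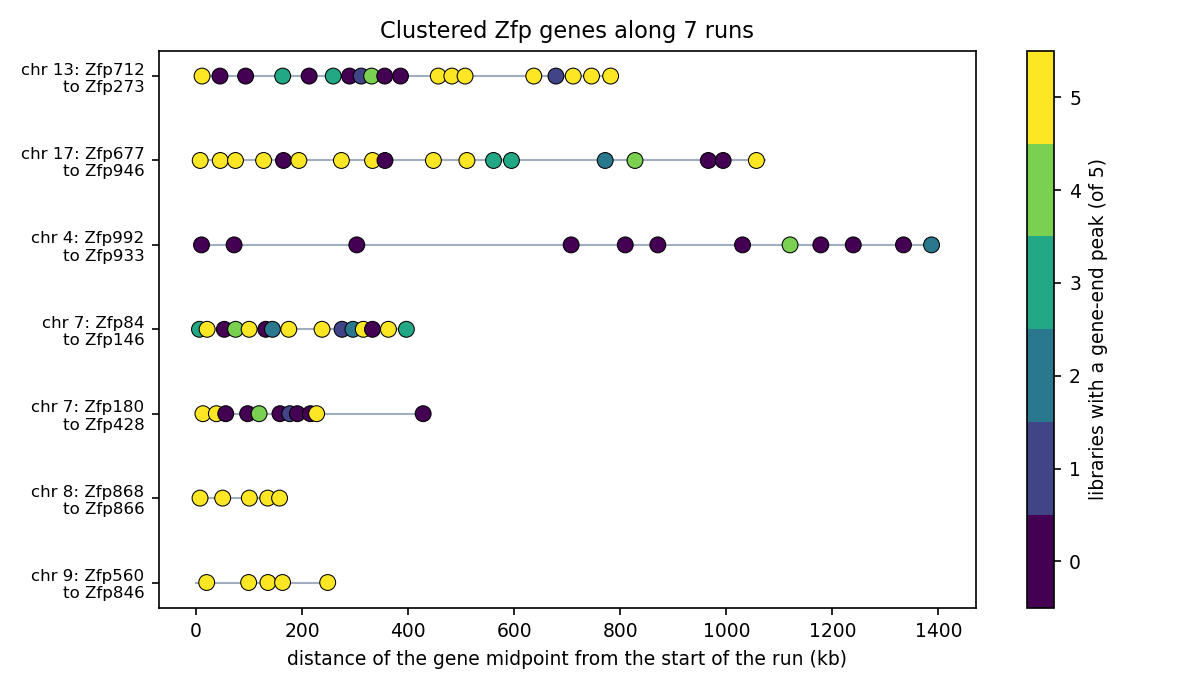
Clustered Zfp genes along 7 runs, each point a gene at its midpoint (distance in kb from the start of the run, x axis) and coloured by the number of 5 libraries with a gene-end peak. The chromosome 4 run has no gene at 5 and the chromosome 8 and 9 runs shown have 5 of 5 genes there.

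On chromosome 7, the run from Zfp180 to Zfp428 had 3 of 11 members open in all 5 and 6 in none, and the run from Zfp84 to Zfp146 had 6 of 15 and 3 of 15. Their leading members were Zfp180, with a lowest percentile of 54.7, and Zfp420, with 77.4. In the run from Zfp60 to Zfp850 none of 5 was open in all 5, and Zfp60 led with 4 libraries. The leading members of the other chromosome 7 runs of 5 or more were Zfp865, Zfp444, Zfp128 and Zfp771, with lowest percentiles of 81.9, 86.3, 77.4 and 77.6. Zfp282 led the chromosome 6 run with a lowest percentile of 81.4, and Zfp846 the first chromosome 9 run with 72.6.

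Most peaks of open members sat at the start of the gene, as they did for genes in general. Among the 156 members with a known strand, 98.8% to 99.0% of those open in a library had the peak at the start end, and 1 per library had it at the far end only, where such genes usually carry the exon that encodes the fingers. The summit lay a median of 72 to 88 bp from the nearest listed start, and 77.4% to 83.5% lay within 250 bp. Unclustered Zfp genes were close to this, with medians of 70 to 79 bp. Over all genes with a known strand 95.9% to 96.7% had the peak at the start end, the median distance was 89 to 97 bp, and 74.4% to 77.4% of summits lay within 250 bp. Exceptions among the members named in the text included Zfp597, Zfp771 and Zfp445, the last described below. The Zfp597 summit lay at -12187 to -12135 bp from the nearest listed start, though within 1 kb of the annotated gene end on that side. The Zfp771 summit lay at 9863 to 9913 bp, at the far end.

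**Figure D4:**
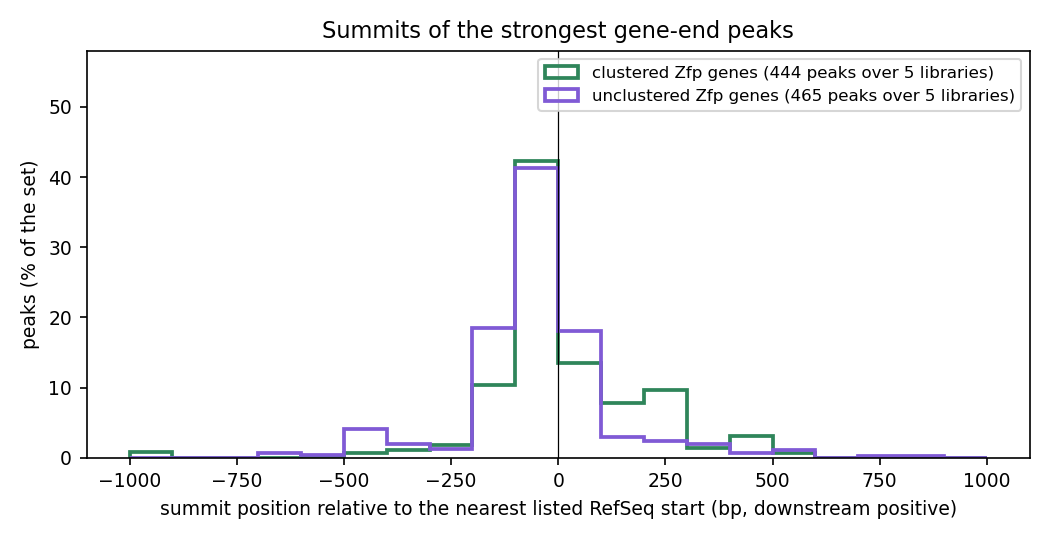
Position of the summit of the strongest gene-end peak relative to the nearest listed RefSeq start (bp, x axis, downstream positive) as a share of peaks (%, y axis), for clustered (444 peaks) and unclustered (465 peaks) Zfp genes over 5 libraries. Summits crowd at the start in both sets, and 28 and 20 peaks lie beyond 1 kb and are not drawn.

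Several members without a gene-end peak were accessible at a start that lies inside the annotated gene. Of the 156 members with listed starts, 65 were open at a gene end in all 5 libraries and 80 (51.3%) at a listed start, the 65 included. Of the 15 gained, 14 were open at a gene end in no library: Zfp981, Zfp777, Zfp787, Zfp583, Zfp93, Zfp428, Zfp790, Zfp976, Zfp688, Zfp708, Zfp458, Zfp595, Zfp52 and Zfp229. Zfp708, known to bind a class of transposons, is among them. The same step raised unclustered genes from 81 to 91 of 145 (62.8%). Of the members, 31 (19.9%) had no peak at a listed start in any library, against 33 (22.8%) of the unclustered genes. Shares at listed starts over all protein-coding genes are not given here, so the gain is not shown to be particular to Zfp genes.

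The strongest members had peaks near the top of every list. For Zfp961 the percentiles were 95.6 and 98.8 in normal-glucose replicates 1 and 3 and 95.6, 97.9 and 95.6 in high-glucose replicates 1, 2 and 3. Its region, chr8:71950855-71951186, lay over the window printed above. The authors' fold enrichment there was 15.6 and 21.8 in normal glucose and 16.3, 21.9 and 16.6 in high glucose in the same order, so the groups overlapped. Zfp617, in the same run, stood at 95.1 to 98.4 and Zfp653 at 94.5 to 97.8, again with overlapping groups. The Zfp653 summit lay 408 to 423 bp past the nearest listed start, in chr9:22070757-22071189, and in all 5 libraries its peaks also lay at an end of another gene, so they cannot be assigned to Zfp653 alone. Zfp869, Zfp963, Zfp868, Zfp444, Zfp597, Zfp53 and Zfp865 followed, their lowest percentiles ranging from 81.9 to 91.3. Of these 10, Zfp869, Zfp963 and Zfp868 were from the chromosome 8 run in which every member was open in all 5.

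At the other end, 5 members open in all 5 libraries had a marginal peak in at least 1. Zfp54 fell to 1.61 in normal-glucose replicate 1, while it stood at 88.1 in normal-glucose replicate 3 and at 79.9, 79.9 and 70.9 in high-glucose replicates 1, 2 and 3. Zfp30 was at 78.9 in normal-glucose replicate 3 but at 12.1 in normal-glucose replicate 1 and at 5.34 to 15.9 in high glucose. Zfp316 and Zfp493 fell to 3.48 and 5.34 in high-glucose replicate 3, and Zfp882 lay between 12.1 and 39.3. The low library was not always the same.

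**Figure D5:**
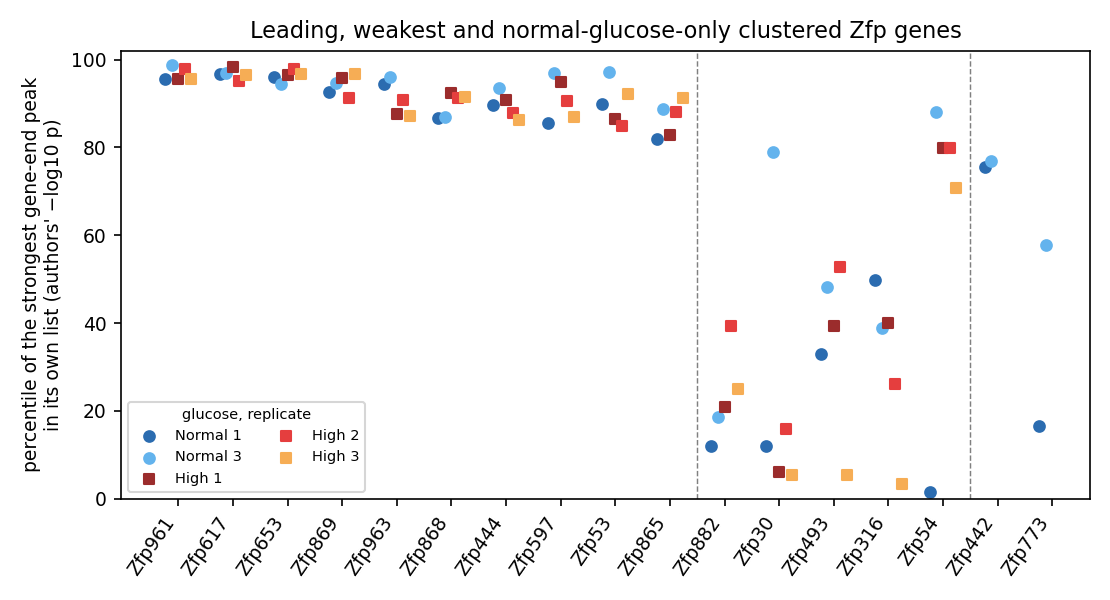
Percentile of the strongest gene-end peak in its own list (y axis) for the 10 members with the highest lowest percentile, the 5 with the lowest, and the 2 open in normal glucose alone, separated by dashed lines. Each point is 1 library, circles for normal and squares for high glucose. The 10 leading members stay at 81.9 or above and the next 5 each drop to 12.1 or below.

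Levels are given next for 5 members with known roles, which were chosen after the values were seen. Zfp809, which silences retroviruses through their primer binding site, was open in all 5 libraries with percentiles of 70.4 and 65.6 in normal glucose and 67.9, 82.0 and 66.6 in high glucose. Zfp568, a repressor of a placental Igf2 transcript, was open in all 5 at 69.0 to 82.5. Zfp746, a repressor of the gene for the PGC-1alpha coactivator, was open in all 5 at 80.0 to 87.8. Zfp110, a partner of the neurotrophin receptor p75, was open in all 5 at 27.2 to 94.5. Zfp445, which helps to keep genomic imprints, was open in 3, both normal-glucose libraries and high-glucose replicate 2, at 9.87 to 52.8. Its summit there lay at -20847 to -20787 bp from the nearest listed start, so these calls do not show an open listed start.

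Members without any peak in the gene or within 1 kb numbered 29 (16.6%), against 33.6% of all protein-coding autosomal genes. In the largest runs these included Zfp429 and Zfp459 on chromosome 13, Zfp758 on chromosome 17, Zfp534 on chromosome 4, and Zfp260 and Zfp27 on chromosome 7. Zfp260 is known as a partner of the cardiac factor GATA4 in heart muscle cells.

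Genes on a fixed list of repression machinery, which is wider than the factors that KRAB proteins recruit, were mostly open. Of 20 such genes 15 were open in all 5 libraries, against 37.1% of all protein-coding autosomal genes. A further 4 were open in some and 1, Dnmt1, in none at its gene ends, against 46.4% of all genes open in none. Each of the 5 lists had a peak within Dnmt1. By lowest percentile the leading genes were Morc3, an ATPase of silenced chromatin, with 99.4, Uhrf1, which guides DNA methylation after replication, with 96.2, the histone methyltransferase gene Suv39h2 with 93.7, Morc2a with 91.6, and Trim28 itself with 88.3. Setdb1 was open in all 5 with a lowest percentile of 54.2. Cbx1 and Chd4 were open in 4 libraries and lacked a peak in high-glucose replicate 1, and Chd3 and Ehmt2 were open in 1.

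The share of open members did not differ detectably between glucose conditions. It averaged 61.7% ± 8.08 in normal glucose (SD, n = 2) and 55.6% ± 0.330 in high glucose (SD, n = 3). For high minus normal this is -6.10 percentage points (p = 0.4 by an exact two-sided permutation test). The two-sided p is 2 times the one-sided p, so 0.2 is the smallest possible. The SD in normal glucose came from replicate 3, the longest list, and without it the difference was -0.381 points. With every list cut to its 22156 strongest peaks the shares were 53.1% and 55.4% in normal glucose and 55.4%, 53.7% and 54.3% in high glucose, and the sign turned, to 0.190 points (p = 1, exact permutation test). Of the 9 members open in a lone library 7 were so in normal-glucose replicate 3, as were 539 of 851 such genes overall. Of the 16 missing in a lone library 6 were missing in normal-glucose replicate 1, 5 in high-glucose replicate 1, 4 in high-glucose replicate 2 and 1 in high-glucose replicate 3. Over all genes these counts were 333, 407, 129 and 242, with 13 missing in normal-glucose replicate 3 alone.

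Open in normal glucose alone, in each of its 2 libraries, were Zfp442 and Zfp773, 2 members, against 0.702% of all protein-coding autosomal genes, which amounts to 1 or 2 genes in a set of this size. Open in high glucose alone, in each of its 3 libraries, were 0 members, against 0.0677% of all. Both counts turned on single libraries, but leaving a library out loosens the rule, so neither count could fall. Leaving out replicate 1 of normal glucose raised the first to 9, and leaving out replicate 1 or 3 of high glucose raised it to 6 or 4. Leaving out replicate 3 of normal glucose raised the second to 6, and leaving out replicate 3 of high glucose raised it to 1. Counts over all genes under these looser rules are not given here, so the raised counts have no background beside them. Near the background rates above, the counts of 2 and 0 show nothing particular to these genes.

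At Zfp773 the normal-glucose libraries did not share a region. The peak of replicate 1, at chr7:7136772-7136858, stood at the 16.7 percentile, and that of replicate 3, at chr7:7136458-7136584, at the 57.7. At a −log10 q of at least 5 Zfp773 was no longer open in both. In high glucose the nearest peak to the second region lay 14.8 to 14.9 kb away.

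At Zfp442 a region at chr2:150451464-150451587 had percentiles of 75.6 in replicate 1 and 76.9 in replicate 3 of normal glucose, with an authors' fold enrichment of 8.14 and 9.62. No high-glucose library had a peak within 88.6 kb of it. Letters of that region also occur in windows of other genes. The windows of Zfp442 (chr2:150451452-150451751, minus strand), its run partner Zfp937 (chr2:150217849-150218148, plus strand) and, for comparison, Zfp758 (chr17:22361213-22361512, plus strand) are printed below. Capitals mark letters in any stretch of 50 that the listed window of another gene also holds, on either strand.
Zfp442: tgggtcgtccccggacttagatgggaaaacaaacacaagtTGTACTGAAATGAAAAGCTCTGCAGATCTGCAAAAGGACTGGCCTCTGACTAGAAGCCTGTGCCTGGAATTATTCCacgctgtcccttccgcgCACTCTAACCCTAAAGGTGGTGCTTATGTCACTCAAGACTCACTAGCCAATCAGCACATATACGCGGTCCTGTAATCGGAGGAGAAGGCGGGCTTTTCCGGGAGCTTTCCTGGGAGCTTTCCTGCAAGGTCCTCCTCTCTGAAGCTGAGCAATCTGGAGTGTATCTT
Zfp937: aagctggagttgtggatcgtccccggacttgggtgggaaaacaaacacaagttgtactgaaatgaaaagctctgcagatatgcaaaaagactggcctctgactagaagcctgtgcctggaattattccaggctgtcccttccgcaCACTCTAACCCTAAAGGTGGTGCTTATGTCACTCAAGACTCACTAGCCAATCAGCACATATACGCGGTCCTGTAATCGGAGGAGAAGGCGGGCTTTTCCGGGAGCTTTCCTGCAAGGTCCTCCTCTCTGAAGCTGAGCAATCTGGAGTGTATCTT
Zfp758: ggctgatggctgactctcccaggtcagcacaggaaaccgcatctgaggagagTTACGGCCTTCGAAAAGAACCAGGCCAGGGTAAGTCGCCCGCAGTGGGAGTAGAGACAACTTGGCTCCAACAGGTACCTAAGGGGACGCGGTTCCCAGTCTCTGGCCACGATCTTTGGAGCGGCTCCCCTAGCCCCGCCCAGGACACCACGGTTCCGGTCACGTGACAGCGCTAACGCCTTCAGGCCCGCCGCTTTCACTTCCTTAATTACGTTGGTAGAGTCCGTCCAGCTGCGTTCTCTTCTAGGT

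Zfp758 shared such stretches with Zfp942 and Zfp943 of its run, and Zfp442 with Zfp937 and Gm10130. Each of the 124 bases of the Zfp442 peak region fell in at least 1 such stretch, which does not make every stretch over it a shared one. Of all stretches of 50 letters in the window, 38.6% were shared for Zfp442 and 27.9% for Zfp937. Zfp937 had a peak at the matching place, chr2:150218025-150218160, of which all 124 bases inside the window were shared as well. That peak was present in normal-glucose replicate 3 at the 69.9 percentile and in high-glucose replicates 1, 2 and 3 at 80.6, 73.9 and 37.4, and absent in normal-glucose replicate 1. So every library had a peak at Zfp442 or Zfp937, and normal-glucose replicate 3 had both. The rule by which reads of such letters were placed is not among the sources used, and their part in the difference at Zfp442 was not tested.

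Repeated letters and missing peaks went together over the whole set, as counts. Of 133 members whose window had no repeated stretch of 50 letters, 63 (47.4%) were open in all 5 libraries and 34 in none. Of 16 with up to 50% of stretches repeated 2 were open in all 5, and of 7 with more 0 were, 5 of them open in none. These 7 were Zfp931, Zfp772, Zfp781, Zfp942, Zfp943, Zfp944 and Zfp758, of which Zfp942 and Zfp943, whose starts face each other, were open in 3 libraries. Unclustered genes showed the same, with 80 of 128 open in all 5 without repeats and 0 of 10 above 50%. Copies outside the table of windows were not searched, so these are lower limits of repetition. The measure was added after seeing the data and its part in the calls was not tested.

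Promoter letters gave a like picture for clustered and unclustered Zfp genes in 3 of the motifs searched. CCAAT was in 50.6% of clustered and 49.7% of unclustered windows, against 38.95% of all 16457 gene windows, and CCGGAAG in 19.9% and 25.5% against 12.3%. TATAAA, the TATA box, was in 4.49% and 6.90% against 13.5%. GGGCGG was in 39.7% and 49.0% against 47.3%. Among members CCAAT was in 53.8% of those open in all 5 and 48.9% of those open in none, CCGGAAG in 21.5% and 21.3%, and GGGCGG in 46.2% and 36.2%. The other motifs searched, all on either strand, gave in clustered and all windows 5.77% and 3.66% for GCATGCGC, 0% and 1.28% for CTCGCGAG, 1.28% and 1.95% for AAGATGGCG, 3.21% and 2.42% for TGACGTCA, 3.85% and 7.17% for TGANTCA, and 69.2% and 68.4% for CANNTG. Each is a match of letters in the window and not a measured binding site.

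At the limit of the rule, the members with the most distant second neighbour were Zfp428 at 187.8 kb, open in none at its gene ends, and Zfp629 at 183.8 kb, open in 4 libraries. The unclustered genes nearest to the limit were Zfp81 at 218.6 kb, open in all 5, and Zfp345 at 224.3 kb, open in none.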

How the data were processed

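ATAC-seq peak lists of 6 libraries were used, with groups and replicate numbers from the labels. Per the submitters' processing notes, which give names without roles or settings, mm10 was the build, and Bowtie 1.0.0, cutadapt 1.0, MACS2 2.1.0, Picard 1.90, SAMtools 0.1.19, FastQC, edgeR and DiffBind 1.12.3 are named. For multiply placed reads, duplicates and the transposase offset the treatment is not among the sources used here. Each deposited peak has the authors' score, their fold enrichment as a ratio to background, and their p-value and q-value as −log10. The lowest deposited −log10 q was 1.30 (q of 0.05). No reads per peak are listed, so library depth is unknown, and a longer list can open more genes.

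Peaks within 1 kb of either gene end were counted (overlap of at least 1 bp) in lists of at least 1000 peaks. Shares were compared by two-sided exact permutation tests over libraries, and counts were set beside those over all genes. Strand, starts and promoter windows came from a RefSeq table of GRCm38.p6. The members, lists and rules were chosen with earlier results of these data known. Named genes were the condition-specific members, the leading member of each run of 5 or more, the 10 members open in all 5 with the highest and the 5 with the lowest percentile in their weakest library, those nearest the 200 kb limit, up to 6 without any peak, 3 unclustered genes and the leading machinery genes. Planned counts of zinc fingers per protein were not run, since no protein sequences were used here. Python 3.11.15, numpy 2.4.6, pandas 2.3.3 and matplotlib 3.10.9 were used, and the calls were tested on simulated peaks.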

Additional observations from a re-analysis of the deposited data

How the results depend on the processing

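The count of clustered Zfp genes open in all libraries, 77, stayed within 1.5 times under every setting tried (56 to 97) except with all 6 libraries. There it was 0 because normal-glucose replicate 2 held no member. Some settings changed the set of members, to between 122 and 215, and as a share of members the range was 32.0% to 55.4%. Leaving out a library or widening the window could only keep or raise the count, and a stricter q could only keep or lower it. The difference between glucose conditions, -6.10 points, turned to 0.190 with lists of equal length and to 14.5 with all 6 libraries. Leaving out each library gave -11.8 to -0.381. With same-numbered libraries as pairs (replicate block, replicates 1 and 3) it was -6.00 (p = 0.5, exact permutation test, the smallest possible). The deviations of same-numbered libraries correlated at 0.0431 and -0.0110 over genes, so the numbers were not taken as pairs.

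The difference from unclustered Zfp genes, -3.35 points, turned to 1.45 without peaks shared with another gene end, to 0.164 with neighbours within 100 kb, to 2.57 with at least 4 other such genes, and to 0.190 without the chromosome 4 run. That run was chosen after seeing that 10 of its 12 members were open in none, so leaving it out had to raise the clustered share. The difference was -0.936 with windows of 500 bp, -6.08 at a −log10 q of at least 5 and -4.74 at equal list length. At listed starts it was -5.17, over only the 156 clustered and 145 unclustered genes that have them. With all 6 libraries it was -2.88 (p = 0.0312, exact permutation test, the smallest p that 6 libraries allow). The library added there, normal-glucose replicate 2, held only 66 peaks and none at a member, so it gives this p little weight. Leaving out each library gave -3.88 to -2.91. The count of members open in normal glucose alone, 2, was 0 with all 6 libraries, 1 with neighbours within 100 kb and 0 with at least 4 others, and 3 to 9 when a library was left out. The high-glucose count, 0, was 0 to 6 when a library was left out. Leaving a library out loosens the rule, so it could only keep or raise either count. The cause of the other changes was not tested. Of 40 named genes, 9 changed their number of libraries at a −log10 q of at least 5 and 5 at equal list length. Without shared peaks 3 changed, Zfp653, Zfp654 and Zfp664, each from 5 libraries to 0.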
